A study of Mus musculus with 2 samples.

Results

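The cytoplasmic ribosomal protein genes are the genes that encode the protein parts of the ribosome that translates nuclear messenger RNAs. They were chosen by symbol: Rpl or Rps followed by a number with an optional letter, x or l, together with Rplp0, Rplp1, Rplp2 and Rpsa, without the Rps6k kinases and the named pseudogenes. The rule found 80 members of 32285 annotated genes, 49 of the large subunit and 31 of the small subunit. It used no measured value.

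The cells came from fetal livers of CD1 mice at E14.5, a day of embryonic development when the liver is the main blood-forming organ, that were wild type (WT) or knockout (KO) for IκBα, the inhibitor of NF-κB that is encoded by Nfkbia. Livers were depleted of cells bearing lineage markers and sorted for LSK cells, which lack lineage markers and carry Sca-1 and Kit, and were profiled by 10x Genomics 3′ single-cell RNA sequencing. The WT library pooled 2 embryos and the KO library 3, the sample titles name LT-HSC where the cell type field gives LSK, and the labels do not describe the knockout allele. With 1 library per genotype no test between genotypes was possible, so every interval below covers counting error only, and embryo, library and genotype cannot be told apart.

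A ribosome is built in the nucleolus from ribosomal RNA and one copy each of most of these proteins, so their messenger RNAs are made and translated as a coordinated set. Many of them start with a run of pyrimidines, the TOP sequence, through which growth signals control their translation. Mutations that lower the dose of single ribosomal proteins cause Diamond-Blackfan anaemia, in which red cell production fails, and erythroid precursors are known for intense ribosome production before haemoglobin synthesis and for loss of ribosomes as they mature.

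The pyrimidine run is the sequence feature most members are known for, and it is shown here for 5 members whose level was lower in the KO library and for Rps18, which varied within both libraries. Each window is 30 bases of the RefSeq GRCm38.p6 gene start, written 5′ to 3′ on the gene's strand, with base 14 as the annotated start and capitals marking an unbroken run of at least 8 C or T.
Rpl35, chr2:39005115-39005144, minus strand: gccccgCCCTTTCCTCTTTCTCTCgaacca
Rpl38, chr11:114668567-114668596, plus strand: cggaagcctcgTTCTTTCCCCgttctcttc
Rps27, chr3:90213632-90213661, minus strand: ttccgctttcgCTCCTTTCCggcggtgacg
Rps28, chr17:33824546-33824575, minus strand: taccgcgtgcggtctcgcgagagcgaaagt
Rpl37a, chr1:72711247-72711276, plus strand: ccgctcgccggtctaaaaccgcgcatgcgc
Rps18, chr17:33955649-33955678, minus strand: cgtcacttccgCTCTCTCTTCCacaggagg

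Rpl35, Rpl38, Rps27 and Rps18 held such a run at the annotated start, and Rps28 and Rpl37a did not. GENCODE places the start of Rpl37a at 72711290, past the end of its window, so the absence there holds for the RefSeq start only. The GENCODE starts of Rpl35 (39005624), Rpl38 (114668524) and Rps18 (33956001) also lay outside their windows. The runs of these members likewise hold for the RefSeq start only. RefSeq promoters matched 61 of the 80 members. A C or T run of at least 8 bases within 10 bases of the start was present in 29 of the 61 (47.5%) and in 15.8% of the 27025 genes of the table. The letters CTTCCG, or CGGAAG on the other strand, stood in the 300 bases around the start, 250 before and 50 after it, of 41 members (67.2%) and of 18.8% of all genes. Of 9 matched members that were lower in the KO library in most cell types, 4 had the run and all 9 had those letters. A match describes the letters of the window and is no evidence of binding.

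Cells were assigned to gates by the summed level of marker genes, none of them a ribosomal protein gene. The stem-core gate used Hlf, Mecom, Procr, Fgd5, Mllt3 and Esam, and the erythroid gates used Klf1, Rhag, Ermap, Aqp1, Epor and Cldn13, with the haemoglobin share separating erythroblasts of low (1% to 20%) and high (at least 20%) haemoglobin. Genes that the gates did not use followed the same order. Kit, which encodes the receptor used for the sort, stood at 119 CPM (UMIs of the gene divided by all UMIs of the gate, scaled to 1e+06) in WT and 112 CPM in KO stem-core cells and at 2.82 and 1.75 CPM in erythroblasts of high haemoglobin. Ly6a, which encodes Sca-1, stood at 30.0 and 39.6 CPM in the stem-core gate and below 1 CPM in the late erythroid gate (0.461 and 0.361 CPM), so RNA for this protein of the sort was nearly absent from the erythroid gates. The 8 gates of the haematopoietic progenitors and erythroid cells carried the main comparisons, and the other 7 gates held 29 to 502 cells per library.

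The targeted gene gave 1478 UMIs in the WT library and 7 in the KO library, as the labels state. Of 3840 WT and 4928 KO barcodes, 3458 and 4417 cells were kept, with a median of 28065 and 19560 UMIs per cell, and 7 barcodes occurred in both libraries. Scrublet called 3.90% of WT and 5.80% of KO cells as doublets. UMIs of Y-linked genes without any of the female marker Xist were found in 0.116% of WT and 17.4% of KO cells. Xist without a Y-linked UMI was found in 3315 WT and 3066 KO cells, and cells with both or neither were given no sex. By these calls male cells made up a part of the KO pool and almost none of the WT pool. The difference in depth and the difference in sex stand beside every comparison of the genotypes, and their part in the results was not tested beyond the restrictions given.

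Ribosomal protein genes took about 3 of every 10 UMIs, and the share was slightly lower in the KO library. Over all kept cells the members took 30.7% of 108325741 UMIs in WT and 29.2% of 99069309 UMIs in KO, a difference of -1.43 percentage points (95% interval -1.44 to -1.42). The median cell held 31.5% in WT and 30.4% in KO, and 62.6% of the KO cells lay below the WT median, so the distributions overlapped over most of their range. The standard deviation between cells of 1 gate and library was 2.62 to 7.82 percentage points in the main gates, larger than the difference in each of them.

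By gate, the share was highest in cells that passed no marker limit (34.4% in WT and 33.1% in KO) and, among the named gates, in stem-core and lymphoid-primed cells. In the stem-core gate it was 33.3% in WT (467 cells) and 32.8% in KO (449 cells), and in the lymphoid-primed gate, marked by Flt3, Dntt, Il7r, Rag1 and Satb1, 33.5% and 32.4% (179 and 246 cells). The neutrophil gate, marked by Mpo and Elane among others, had 31.9% and 30.6%, and the megakaryocyte-erythroid gate, marked by Gata2, Gata1 and Zfpm1, 32.6% and 31.6%. The KO value was the lower one in 8 of 8 main gates, with differences from -1.32 (neutrophil) to -0.42 percentage points (erythroblasts of high haemoglobin) and a median of -0.77. It was also the lower one in 15 of 15 gates by summed UMIs, although in mast-like cells the interval of the difference, -0.25 to 0.01, included 0.

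**Figure D1:**
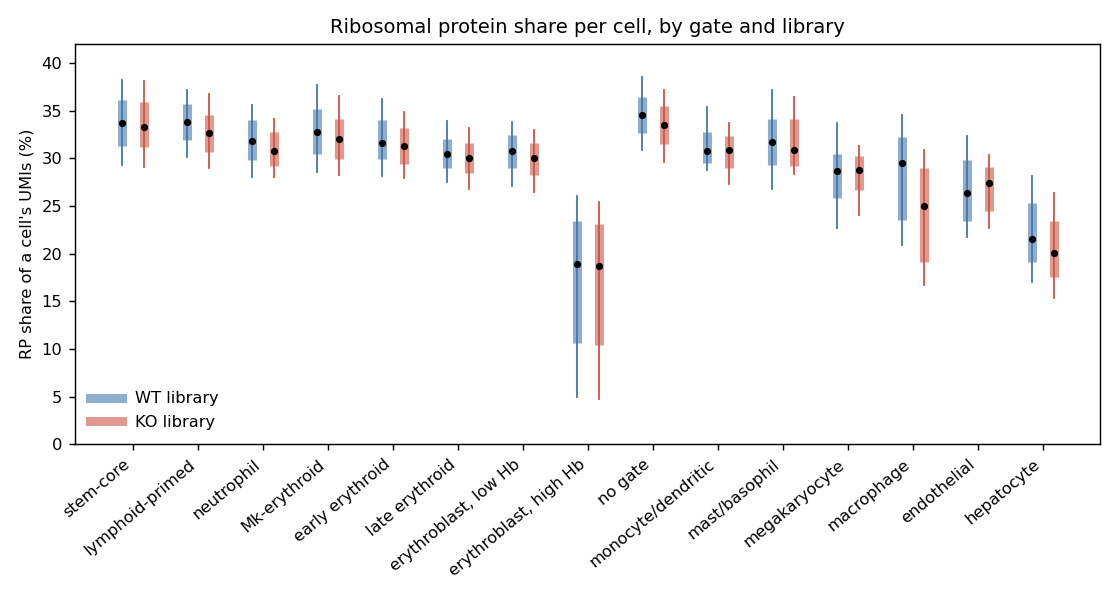
Share of each cell's UMIs from the 80 ribosomal protein genes, in percent, for each marker gate and library. Points are medians over cells, thick bars the middle 50% and thin lines the middle 80% of the cells. WT and KO overlap in every gate, with the lowest shares in erythroblasts of high haemoglobin (medians 18.9% and 18.7%).

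The gates outside the progenitors differed more between each other than the genotypes did. Hepatocyte-like cells, with Alb at 13624 and 15184 CPM, held 23.0% in WT and 21.8% in KO, megakaryocyte-like cells 27.5% and 27.1%, and endothelial-like cells 28.1% and 26.9%. The macrophage gate had the largest difference, 29.2% in WT (68 cells) against 26.1% in KO (123 cells), and 78.0% of its KO cells lay below the WT median. In that gate the median UMI count was 34947.5 in WT and 17023 in KO and the macrophage gene C1qa stood at 654 and 1108 CPM, so cells of the same gate differed in depth and in marker level as well, and their part in the difference was not tested. In endothelial-like cells the summed share was lower in KO while the median cell was 1.03 percentage points higher, and in megakaryocyte-like and monocyte and dendritic cells the median KO cell was higher by 0.14 and 0.04 points.

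The relation of depth to share varied by gate. Spearman's rho between a cell's UMI count and its share was -0.33 in WT and -0.45 in KO over the stem-core cells, -0.10 and -0.11 over late erythroid cells, 0.02 and -0.32 over neutrophil cells, 0.05 and 0.03 over erythroblasts of low haemoglobin, and 0.30 and 0.45 over macrophage-like cells, as a description over cells of single libraries. Among stem-core cells of 7000 to 12000 UMIs the share was 35.8% in WT (117 cells) and 34.1% in KO (195 cells), and among those of 12000 to 20000 UMIs 33.5% (219 cells) and 31.9% (141 cells). At 20000 UMIs or more it was 32.1% (107 cells) and 30.8% (30 cells), whereas under 7000 UMIs the order was opposite, 30.7% in WT (24 cells) and 35.5% in KO (83 cells). With both libraries restricted to cells of 10000 to 30000 UMIs, the stem-core difference was -1.14 instead of -0.48 percentage points. Stem-core cells with few transcripts of proliferation genes, under 2 per 10000 UMIs, held a larger share than the others in both libraries: 35.4% (116 cells) against 32.9% (351 cells) in WT, and 36.1% (72 cells) against 32.5% (377 cells) in KO. Those cells also had fewer UMIs, a median of 11287.5 against 17131 in WT and 7111 against 11415 in KO.

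Along the erythroid gates the share was lowest at high haemoglobin in both libraries. In WT it was 31.8% in the early erythroid gate, 30.5% in the late erythroid gate, 30.8% in erythroblasts of low haemoglobin and 17.7% in those of high haemoglobin. In KO the same order of gates gave 31.1%, 30.0%, 29.9% and 17.2%. Erythroblasts of high haemoglobin thus differed from the stem-core gate by -15.7 percentage points in WT and -15.6 in KO, while haemoglobin genes took 40.9% and 42.3% of their UMIs.

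The distance was much smaller without haemoglobin UMIs. With haemoglobin and mitochondrially encoded genes left out of the total, the share was 34.4% in WT and 33.9% in KO stem-core cells, 31.3% and 30.8% in late erythroid cells, 33.8% and 33.1% in erythroblasts of low haemoglobin, and 30.6% and 30.7% in those of high haemoglobin. On this total the distance from stem-core to high haemoglobin was -3.86 percentage points in WT and -3.23 in KO, and the share was lower in late erythroid cells than in the gates on either side of them. The KO share was then lower in 7 of 8 main gates and 0.14 points higher in erythroblasts of high haemoglobin. In that gate the middle 50% of the cells spanned 10.6% to 23.4% of all UMIs in WT and 10.4% to 23.1% in KO.

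**Figure D2:**
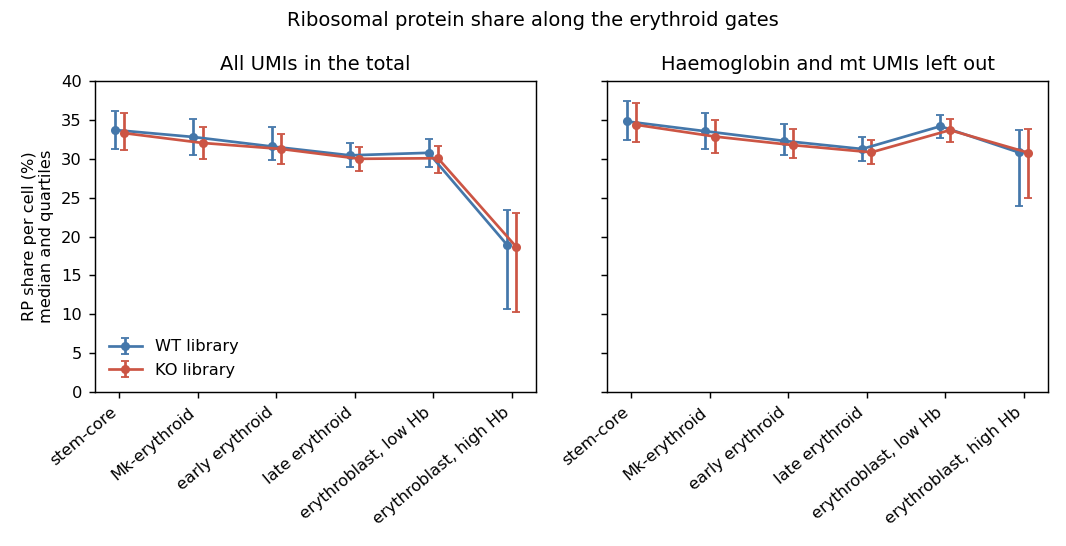
Share of UMIs from ribosomal protein genes from the stem-core gate along the erythroid gates, in percent, over all UMIs and over a total without haemoglobin and mitochondrial genes. Points are medians over cells and bars the quartiles. At high haemoglobin the median is 18.9% in WT and 18.7% in KO over all UMIs and 30.8% in both over the reduced total.

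Single members took different courses along the erythroid gates. The level in the late erythroid gate against the stem-core gate, as log2 of the CPM ratio, ranged from -0.63 to 0.83 in WT and from -0.62 to 0.82 in KO over 77 members with at least 1000 UMIs. At a size of at least 0.15, 12 members were higher and 37 lower in WT, beside 53% and 30.5% of the 4161 genes tested, and 12 higher and 40 lower in KO, beside 55.7% and 27.6% of 3480 genes. The median member stood at -0.14 in WT and -0.15 in KO, where the median of all genes was 0.20 and 0.23. The order of the 77 members was nearly the same in both libraries (Spearman's rho 0.98, a description over genes), and the sign was shared by 72.

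The member with the highest ratio was Rps27l, a p53-inducible relative of Rps27, at 523 CPM in WT stem-core and 931 CPM in WT late erythroid cells and at 518 and 912 CPM in KO (log2 0.83 and 0.82). Rps2, a protein of the small subunit near the messenger RNA entry, followed at 0.57 and 0.42, and the stalk genes Rplp1 (0.46 and 0.48) and Rplp0 (0.45 and 0.39), which recruit elongation factors, came next. Rpl7a and Rpl4 of the large subunit each reached 0.40 in WT, and 0.33 and 0.32 in KO. The 5 with the lowest ratios were Rpl39, a small protein of the exit tunnel (-0.63 in WT and -0.62 in KO), the X-linked Rps4x (-0.61 and -0.60), the Diamond-Blackfan genes Rps24 (-0.57 and -0.51) and Rps7 (-0.51 and -0.49), and Rpl28 (-0.48 and -0.47). Rpsa, the laminin receptor precursor of the small subunit, was level from stem-core to late erythroid (0.00 and -0.07) and higher in erythroblasts of high haemoglobin without haemoglobin UMIs in the total (0.45 and 0.40).

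Between genotypes, the bulk of the members hardly moved and a small group stood apart. Of the 80 members, 77 had at least 1000 UMIs over both libraries, with levels in WT from 771 to 8180 CPM and a median of 3887. Their median log2 KO/WT over all kept cells was -0.05, beside 0.00 over the 8706 genes with as many UMIs. At the size of 0.15, 15 members were lower and 1 higher, beside 7.32% of all genes lower and 7.58% higher. In the stem-core gate 12 were lower and 1 higher with a median of 0.01 (background 7.17% lower and 8.45% higher of 1786 genes). In the late erythroid gate 11 were lower and 1 higher with a median of -0.01 (background 4.06% lower and 6.84% higher of 4880 genes). The stem-core median was on the other side of 0 with median-of-ratios scaling (-0.02), so its direction is not settled.

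Both subunits showed this pattern. Large subunit members took 55.9% of the ribosomal protein UMIs in WT and 56.0% in KO, with a median log2 of -0.04 and 10 lower and 1 higher of 46. Small subunit members took 44.1% and 44.0%, with a median of -0.06 and 5 lower and 0 higher of 31. The background for these counts was 7.32% lower and 7.58% higher of 8706 genes. The macrophage gate differed from the others, with medians of -0.14 and -0.17 for the large and small subunit and 75 of 77 members below 0, where the median of 774 genes was 0.00.

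The 11 lowered outliers, chosen as members farther than 3 scaled median absolute deviations below the member median in at least 8 of 15 gates, were Rpl35, Rps29, Rps28, Rpl38, Rps27, Rps21, Rpl36, Rpl39, Rpl37, Rpl37a and Rpl10. Each was below -0.15 in every one of the 15 gates. No other member was lower past that size in all gates.

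Rpl35, which sits at the exit of the peptide tunnel (chromosome 2, 39001580 to 39005624, minus strand), had the lowest value. Its level was 2215 CPM (WT) and 1496 CPM (KO), a log2 of -0.57 (interval -0.58 to -0.56). By gate the WT level of Rpl35 ran from 1414 CPM in erythroblasts of high haemoglobin to 2522 CPM in ungated cells, and the KO level from 1009 to 1705 CPM in the same gates. In stem-core cells it was 2372 against 1696 CPM and in late erythroid cells 2216 against 1535 CPM. The log2 over the 15 gates lay between -0.66 and -0.48. Of the ribosomal protein UMIs of a cell of at least 10000 UMIs, Rpl35 took a median of 0.725% in WT (middle 50% 0.661% to 0.799%) and 0.514% in KO (0.452% to 0.581%), so the middle 50% ranges did not overlap. Rpl35 was singled out for its low KO/WT in these same cells, so this distance follows at least in part from the choice.

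Rps29, a small zinc-binding protein of the small subunit, followed at 3760 (WT) and 2793 CPM (KO) (log2 -0.43). Rps28, near the exit of the messenger RNA channel, stood at 1938 and 1460 CPM (-0.41), and Rpl38, known for its part in the translation of Hox messenger RNAs, at 2274 and 1714 CPM (-0.41). Rps27 gave 1859 and 1425 CPM (-0.38), and Rps21 2770 and 2157 CPM (-0.36). The remaining large subunit members were Rpl36 (-0.33), Rpl39 (-0.33), Rpl37 (-0.32), Rpl37a (-0.32) and Rpl10 (-0.23), the last an X-linked gene whose protein completes the large subunit. Across gates the values of these 10 lay between -0.51 and -0.16.

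**Figure D3:**
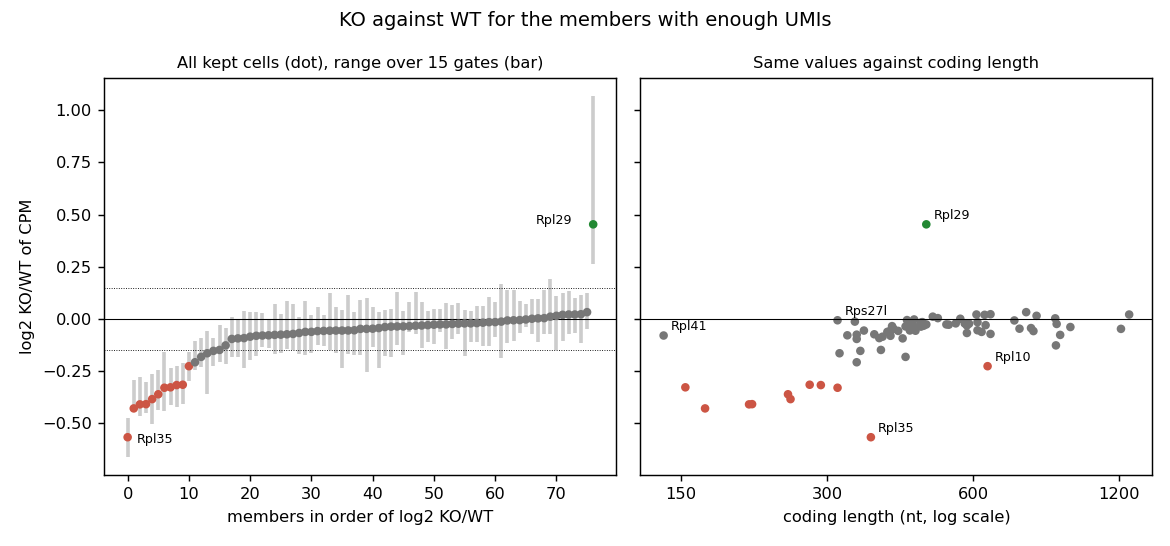
Log2 KO/WT of the CPM of each ribosomal protein gene with at least 1000 UMIs. On the left the members are ordered by this value with grey bars for the range over 15 gates, and on the right they are set against coding length in nucleotides on a log axis. The lowered outliers (red) run from Rpl35 at -0.57 to Rpl10 at -0.23, most of them short, and Rpl29 (green) lies at 0.45.

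The lower KO share of the group was spread over the cells and not held by a few of them. Together the 11 lowered members made up 10.8% of the ribosomal protein UMIs of the median WT stem-core cell, with the middle 80% of cells from 10.1% to 11.7%, and 8.78% in KO, from 7.99% to 9.75%. In late erythroid cells the values were 9.67% (9.19% to 10.2%) in WT and 7.97% (7.46% to 8.46%) in KO, and the ranges did not overlap in either gate. In both libraries this share was lower in late erythroid than in stem-core cells. The 11 were chosen for low KO/WT in these same cells. The lower KO share and the distance between the ranges therefore follow at least in part from the choice. The ranges describe the spread over cells within each library and not the spread between embryos.

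The group made up a large part of the difference in the total share. In all kept cells the 11 lowered members took 3.04% of UMIs in WT and 2.37% in KO, a difference of -0.67 of the -1.43 percentage points. In stem-core cells they took 3.59% and 2.87% (-0.71), where the 68 members other than the 12 outliers took 29.6% and 29.8%, a difference of 0.19 points (0.14 to 0.25) in the other direction. In late erythroid cells the 11 gave -0.57 and the 68 gave -0.05 points. Over the 8 main gates the 68 were lower in KO in 7, with differences from -0.68 to 0.19. Of the 12 left out, 11 were chosen for low KO/WT in these same cells. The upward move of the difference without them, with its sign in stem-core cells, therefore follows at least in part from the choice.

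The lowered members had short coding sequences. Of 12 members of at most 320 coding bases in GENCODE vM21, 10 were lower past 0.15, with a median of -0.33. Of 246 other genes as short, 18.3% were lower, with a median of -0.02. Between 320 and 500 bases 4 of 34 members and 11.8% of 603 other genes were lower, and between 500 and 1000 bases 1 of 29 members and 7.88% of 2095. Over all lengths Spearman's rho of log2 KO/WT with coding length was 0.59 over the 77 members and 0.18 over 8479 other genes, as descriptions over genes that share the 2 libraries. Within the KO library the same rho for male against female cells was -0.07 over the members.

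Length did not sort them fully. Rps27l with 315 annotated coding bases stood at -0.01, while Rpl35 with 369 and Rpl10 with 642 were among the lowered. What separates the short members from others in these libraries was not tested.

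Genes known for Diamond-Blackfan anaemia stood both among the lowered outliers, as Rpl35, Rps29, Rps28 and Rps27 did, and outside them. Rpl26 stood at -0.18 and Rps26 at 3651 (WT) and 3162 CPM (KO) (-0.21), below 0 in 15 of 15 gates. Rps19, the gene most often mutated in the disease, stood at 4368 and 4279 CPM (-0.03). Rps24 (-0.06), Rps7 (-0.07), Rps10 (0.00) and Rpl35a (-0.08) were within 0.10 of 0. Rpl5 (-0.02) and Rpl11 (-0.03), which with the small ribosomal RNA of the large subunit bind Mdm2 and so link ribosome assembly to p53, were there too.

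The stalk genes gave -0.04 (Rplp0), -0.01 (Rplp1) and -0.10 (Rplp2). Rps6, the member phosphorylated by the S6 kinases, gave -0.05 and Rpsa 0.00. The signs of Rplp0, Rplp1, Rpl5, Rpsa and Rps10 turned under other settings, so no direction is given for them. The 4 X-linked members with enough UMIs were Rpl39 (-0.33), Rpl10 (-0.23), Rpl36a (-0.16) and Rps4x (-0.04). Just outside the lowered outliers lay Rps26 (-0.21), Rpl26 (-0.18), Rpl36a (-0.16), Rpl34 (-0.15) and Rpl31 (-0.15). At the other end, below Rpl29, stood Rpl8 (0.03), Rpl14 (0.02), Rpl13a (0.02) and Rpl4 (0.02).

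Rpl29, a non-essential large subunit protein (chromosome 9, 106429454 to 106431568, plus strand), was the one raised member. It stood at 1095 (WT) and 1499 CPM (KO), a log2 of 0.45 (0.44 to 0.46), and at 0.26 to 1.07 over the 15 gates. In stem-core cells Rpl29 gave 1392 and 1748 CPM, and in erythroblasts of high haemoglobin 477 and 841 CPM.

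The level of Rpl29 fell into separate groups of WT cells. Among 3247 WT cells of at least 10000 UMIs, 970 (29.9%, exact interval 28.3% to 31.5%) held under 0.2% of their ribosomal protein UMIs as Rpl29, with a median of 0.0298%, and the other 2277 had a median of 0.483%. Among 3845 KO cells 29 (0.754%, 0.506% to 1.08%) were under 0.2%, and the remaining ones had a median of 0.505%. Between 0.1% and 0.25% lay 86 WT cells. The limit of 0.2% was set after these values were seen, so the difference between the resulting sets in Rpl29 is by construction.

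The WT cells of low Rpl29 occurred in every gate. They made up 17.6% of stem-core, 22.2% of lymphoid-primed, 30.0% of neutrophil, 33.3% of late erythroid and 50.9% of high-haemoglobin cells. In KO there were none among 694 late erythroid, 322 early erythroid, 238 neutrophil and 222 lymphoid-primed cells, and 5.04% among 456 erythroblasts of high haemoglobin. In that last gate ribosomal protein UMIs are few, so the limit can rest on few Rpl29 UMIs. Its 23 KO cells under the limit had a median of 0% Rpl29, and the part of low counts in both libraries was not tested. Against the other WT cells, KO cells with Xist and no Y-linked UMI had the same Rpl29 level: 1491 CPM each over all cells (log2 0.00), and 0.04 in stem-core and 0.06 in late erythroid cells. Without the WT cells of low Rpl29, no member was higher past 0.15 over all kept cells. The WT cells were selected here by their Rpl29 level and the KO cells were not. The close Rpl29 levels and the lack of a raised member thus follow at least in part from that selection. The WT library pooled 2 embryos of an outbred stock, and the labels do not tie cells to embryos, so the source of the split was not tested.

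**Figure D4:**
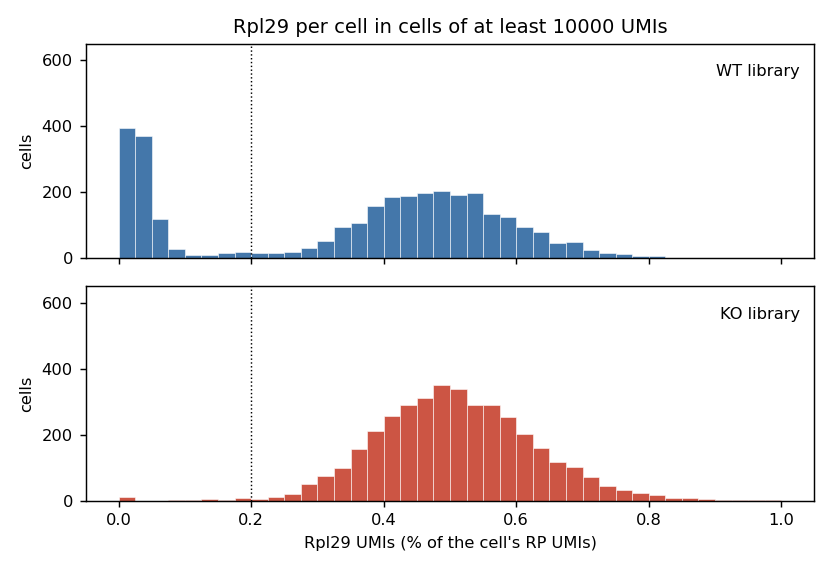
Number of cells by the percent of their ribosomal protein UMIs that came from Rpl29, for cells of at least 10000 UMIs in the WT and KO libraries. WT cells form a group near 0 (970 cells under 0.2%) and a group near 0.48%, and KO cells a single group near 0.5%.

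Rps18 and Rps2 of the small subunit differed within the libraries more than between them. The comparison set WT cells of low Rpl29 beside other WT cells, and KO cells with a Y-linked UMI and no Xist (707, male) beside KO cells with Xist and no Y-linked UMI (2679, female). Rps18 stood at 5767 and 4454 CPM in the WT sets and at 2971 and 5279 CPM in the male and female KO sets, a log2 of 0.37 within WT and -0.83 for male against female within KO. Rps2 stood at 7946 and 6723 CPM in WT and at 5269 and 7306 CPM in KO, a log2 of 0.24 and -0.47. Pooled by library, both were close to 0, at -0.06 for Rps18 and -0.08 for Rps2, and both signs turned among female cells (0.12 and 0.03). Both genes lie on chromosome 17, Rps18 at 33951999 to 33956001 and Rps2 at 24718116 to 24721929.

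In late erythroid cells the members past 0.15 between the WT sets were Rpl29, Rps18 and Rps2, 3 of 77 beside 17.8% of all genes in either direction. Between the KO sets they were Rps18 and Rps2, 2 of 77 beside 22.1%. Rps18 and Rps2 were also the only members past 0.15 between the KO sets in each of the other main gates, beside 28.0% to 42.4% of all genes, but the erythroblasts of high haemoglobin, where 51 members passed beside 47.2%. Male and female KO cells come from different embryos, so sex and embryo cannot be told apart there.

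Over all cells none of the 11 lowered members passed 0.15 between the sets of 1 genotype. Of the 8442 genes tested there, 36.06% passed between the WT sets and 29.02% between the KO sets. Single main gates held exceptions. Between the WT sets Rps28 passed in megakaryocyte-erythroid and early erythroid cells, beside 34.07% and 19.11% of all genes. Rpl10, Rpl37 and Rpl37a passed between the WT sets in erythroblasts of high haemoglobin. In that comparison 1 member was higher and 34 lower, beside 39.0% of all genes in either direction. Between the KO sets Rpl10, Rpl35, Rpl37 and Rpl39 passed in the same gate, beside 47.2% of all genes. Rpl35 stood at 2143 and 2245 CPM in the WT sets and at 1493 and 1530 CPM in the female and male KO sets, and every pairing of a KO with a WT set gave a log2 between -0.59 and -0.49 over all cells, and between -0.57 and -0.22 in erythroblasts of high haemoglobin. The 11 lowered members made up 9.88% and 9.91% of the ribosomal protein UMIs in the WT sets and 8.06% and 8.14% in the KO sets. The 11 were chosen for KO against WT in these same cells, so a distance between the genotypes here follows from the choice.

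**Figure D5:**
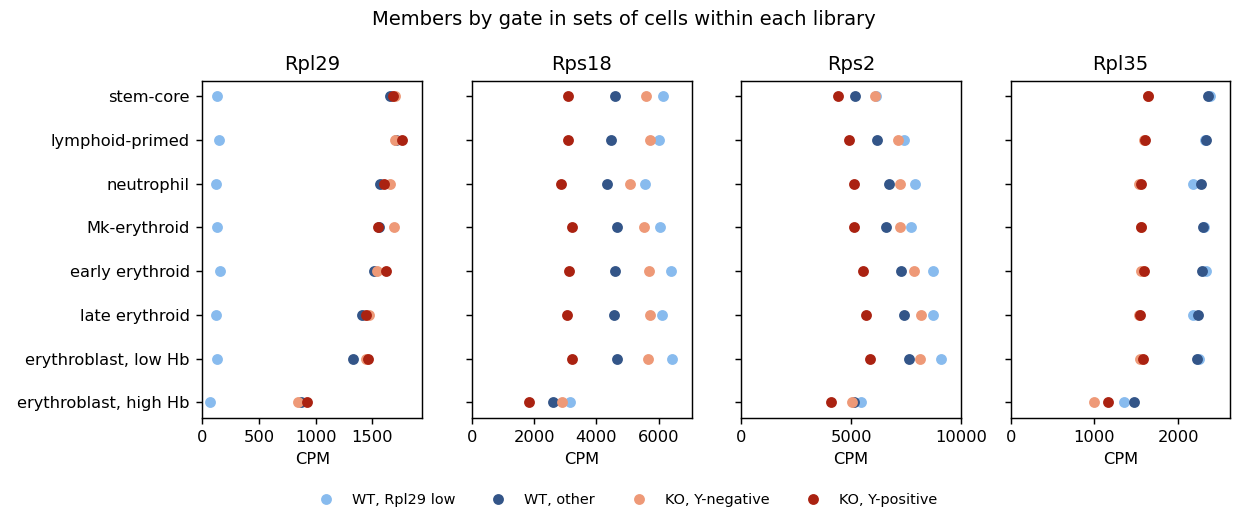
CPM of Rpl29, Rps18, Rps2 and Rpl35 in each main gate (rows) for WT cells of low Rpl29, other WT cells, female (Y-negative) KO cells and male (Y-positive) KO cells. In late erythroid cells Rpl35 is at 2183 and 2236 CPM in WT against 1536 and 1543 CPM in KO, while Rps18 spans 4569 to 6115 CPM within WT and 3048 to 5706 CPM within KO.

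Copies of members elsewhere in the genome can take or lend reads. At least 50 identical words of 31 coding bases were shared by 14 members with 17 other annotated features, 10 of which had at least 1000 UMIs. Gm2000, a copy of the lowered Rpl35, stood at 40.9 (WT) and 47.8 CPM (KO) (log2 0.22), small beside the 2215 and 1496 CPM of Rpl35. Rpl10-ps3 (0.43), a copy of Rpl10, and Rps27rt (0.39), a copy of Rps27, were higher by fewer CPM than their members were lower. Gm10076, which shares its sequence with Rpl41, was lower in KO, at 1452 and 794 CPM (-0.87), so the value of Rpl41 is uncertain.

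Rps18 shared sequence with Gm10260, which stood at 7.22, 212, 266 and 67.3 CPM in low-Rpl29 WT, other WT, male KO and female KO cells, and with Gm11361, at 9.16, 37.5, 82.0 and 29.8 CPM. Both copies were higher where Rps18 was lower. Their sum covered less than the distance in Rps18, and how reads were divided between them was not tested. For Rpl29 the copy Gm3550 gave 331 UMIs in WT and 266 in KO.

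Tissue-restricted paralogues were near absent. Rpl10l, known from testis, had 0 UMIs in both libraries, which allows up to 3 UMIs of each total, and Rpl3l, known from striated muscle, had 4 in WT and 11 in KO. Rpl39l had 494 and 496 UMIs (log2 0.13, interval -0.05 to 0.32), beside 3143 and 2504 CPM of Rpl39. Broadly expressed paralogues outside the rule hardly differed between genotypes: Rpl22l1 stood at 1289 and 1252 CPM beside 2228 and 2090 CPM of Rpl22, Rpl36al at 1323 and 1303 CPM beside 2127 and 1898 CPM of Rpl36a, and Rpl7l1 at 149 and 152 CPM beside 3204 and 3237 CPM of Rpl7. Rps27l stood at 771 and 768 CPM beside 1859 and 1425 CPM of Rps27. Rps4l was not analysed here.

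Other genes of the translation machinery lay close to 0 over all kept cells. Of 26 TOP genes that are no members, such as the elongation factor genes Eef1a1 (-0.06) and Eef2 (0.04), 0 were higher and 0 lower past 0.15, with a median of -0.02. Over all genes 7.58% were higher and 7.32% lower. Of 40 ribosome biogenesis genes (median 0.01), which build ribosomes in the nucleolus, 0 were higher and 0 lower past 0.15. In stem-core cells 20 of them had enough UMIs and 3 were higher, beside 8.45% of 1786 genes: Ddx21 (0.16), Ubtf (0.19) and Mrto4 (0.22). These and the mitochondrial genes given next were named after their values were seen. Of 78 mitochondrial ribosomal protein genes 1 was higher, Mrpl17 (0.17), and 2 lower, Mrpl42 (-0.17) and Mrpl52 (-0.19), with a median of 0.01.

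Without haemoglobin and mitochondrial genes in the total, biogenesis genes took 0.656% of UMIs in WT stem-core, 1.22% in WT late erythroid and 0.302% in WT high-haemoglobin cells, and 0.671%, 1.24% and 0.342% in KO. They thus peaked in the late erythroid gate, where the share of the ribosomal protein genes did not. TOP genes went from 4.50% in WT stem-core to 3.66% in high-haemoglobin cells, and from 4.53% to 3.75% in KO.

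Of 12 p53 response genes 6 had enough UMIs, and 1, Bbc3, was higher (0.40), beside 7.58% of all genes, with Mdm2 at 0.12 and Bax at 0.04. Cdkn1a, the cell cycle inhibitor that p53 induces, gave 362 UMIs in WT and 444 in KO, under the minimum. Of 14 proliferation genes 0 passed 0.15 over all cells (median 0.07). In stem-core cells 4 of 13 were higher (median 0.14), Top2a, Cdk1, Ccnb1 and Ube2c, beside 8.45% of 1786 genes. Of the ribosomal protein genes 1 of 77 was higher there.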

How the data were processed

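The authors deposited filtered raw UMI counts per gene and cell, made with Cell Ranger 6.0.0 on mm10 (per the labels and submitters' processing notes). Totals per library were 109122324 (WT) and 100029143 (KO) UMIs. A minimum of 1000 detected genes and a maximum of 20% mitochondrial UMIs per cell were applied, and called doublets stayed in. Members, gene lists and rules were chosen with earlier results of these data known. Gate limits, in marker UMIs per 10000 UMIs (such as 3 for stem-core and 8 for late erythroid), were set after marker levels were seen. Between 4.80% and 24.8% of a main gate's cells lay within 20% above its limit.

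Shares were taken of UMIs summed over the cells, with exact Clopper-Pearson 95% intervals. Log2 KO/WT is the ratio of CPM, scaled to the UMIs of the gate, with an exact conditional interval, for genes of at least 1000 UMIs over both libraries in the gate. UMIs of a 3′ protocol count molecules and were not scaled by length. The size of 0.15 is the fold minimum that the study used. There it was set on an average log2 fold change within each annotated population of single cells. Here it was set on ratios of summed UMIs, so the 2 measures differ. Named members were the 5 highest and 5 lowest by KO/WT and by late erythroid over stem-core, members under 1000 UMIs, paralogue pairs, stalk, Diamond-Blackfan and X-linked genes, Rpl5, Rpl11, Rps6 and Rpsa. Some genes of these lists are not reported here. Remaining outliers and neighbours of the outlier limit were named by that limit. Rps18 and Rps2 beyond rank, Rpl29 sets and gene copies were examined after seeing the data. Intervals and fold recovery were tested on simulated stem-core counts of 1786 genes, where 4.54% of unchanged genes passed 0.15. Gene positions and coding lengths (the longest annotated) came from GENCODE vM21, GRCm38. Python 3.11.15, numpy 2.4.6, scipy 1.17.1, pandas 2.3.3 and scanpy 1.11.5 were used. Alternatives were other cell filters, doublet removal, clusters, thinning to 5000 UMIs, a depth window, female cells, other totals and scalings, other minimums, and, chosen after seeing the data, adding Rps3a1, Rpl36al, Fau and Rack1 in place of a planned longer addition, or leaving out WT cells of low Rpl29 or the outlying members.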

Additional observations from a re-analysis of the deposited data

How the results depend on the processing

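No paired analysis was possible because only 1 library stood for each genotype, and none could be left out. The KO minus WT share was negative over all kept cells under every alternative run. From -1.43 percentage points it went to -1.14 with at least 2000 detected genes, -1.42 with at most 10% mitochondrial UMIs, -1.18 in the depth window, -1.30 in female cells, -0.96 without haemoglobin and mitochondrial genes, -1.52 as the mean over cells, -1.48 with Rps3a1, Rpl36al, Fau and Rack1 added, and -0.80 without the 12 outlying members. The stem-core value of -0.48 became -0.60 with 2000 genes, -0.39 in clusters, -1.14 in the window, -0.28 in female cells, -0.17 as the mean over cells, and turned to 0.19 without the outlying members. Those members were chosen by KO/WT in these same cells, so leaving them out raises the differences by construction. The median over the main gates, -0.77, became -0.72 with 2000 genes, -0.66 without doublets, -0.84 in clusters, -0.72 on thinned cells, -1.05 in the window, -0.66 in female cells, -0.63 without haemoglobin and mitochondrial genes and -0.22 without the outlying members. In erythroblasts of high haemoglobin it turned to 1.17 with 2000 genes, 0.10 in the window and 0.14 without haemoglobin and mitochondrial genes. The distance from stem-core to high haemoglobin, -15.7 in WT and -15.6 in KO, became -13.2 and -11.4 with 2000 genes, -15.9 and -15.8 without doublets, -11.8 and -12.3 in clusters, -3.86 and -3.23 without haemoglobin and mitochondrial genes, -16.7 and -16.8 as the mean over cells, and -16.2 and -16.2 with the added members. No cluster carried the megakaryocyte-erythroid, early erythroid, mast or monocyte and dendritic names, and cluster borders and names changed when 1 more gene entered the clustering.

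The median log2 of the members, -0.048, became -0.034 with 2000 genes, -0.035 in the window, -0.022 without haemoglobin and mitochondrial genes, -0.061 with TMM and -0.070 without WT cells of low Rpl29. In stem-core it went from 0.007 to -0.023 in the window, -0.0012 with 2000 genes and -0.017 with median-of-ratios scaling. Lower members in stem-core numbered 6 instead of 12 at a size of 0.3. Higher members numbered 2 in the window and 0 without WT cells of low Rpl29 over all cells, and 3 in stem-core with female cells, in place of 1 each. Single members turned in sign in the depth window (Rps18 0.0052, Rps2 0.055, Rplp0 0.071, Rplp1 0.089, Rpl5 0.050), in female cells (Rps18 0.12, Rps2 0.035), with 2000 genes (Rplp1 0.0027), without haemoglobin and mitochondrial genes (Rplp1 0.013, Rpl5 0.0015) with TMM (Rpsa -0.010, Rps10 -0.0091), with median-of-ratios scaling (Rpsa -1.1e-05) and without WT cells of low Rpl29 (Rps18 0.060, Rpsa -0.014, Rps10 -0.016). The cause of these changes was not tested. Of the main quantities 77 alternative values stayed near the reported one, 43 moved and 1 turned, and of the single gates and genes 188 stayed, 192 moved and 14 turned. A value counted as turned only where its sign changed and the reported value exceeded its counting error. The sign changes of the stem-core median are therefore not in that count.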
